A study of Mus musculus with 18 samples.

Results

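The basement membrane genes and integrins are 41 mouse genes, found by symbol among the 55491 rows of the gene count table. They comprise 6 collagen IV chains, 5 laminin alpha chains, 5 laminin beta and gamma chains, 4 linkers and heparan sulfate proteoglycans (*Nid1*, *Nid2*, *Hspg2* and *Agrn*), collagens XV and XVIII, 12 integrin alpha subunits and 7 integrin beta subunits. Their poly-A RNA was counted in tail tendon fibroblasts (TFs) of the mouse after 4 days on collagen-coated plastic, in 18 libraries that form 6 groups of 3 replicates. The Ctrl cells were taken from mice without Cre, which the labels call wild-type, and were kept in 20% O2 or in 1% O2. cKO TFs came from mice with both *Hif1a* alleles floxed and with Cre driven by *Scx*, a tendon transcription factor, and were kept at the same O2 levels. The third pair of groups were Ctrl TFs treated with Cre gesicles, vesicles that carry Cre recombinase into cells, again in 20% or 1% O2. All mice were of 4 to 6 months, of both sexes and of a mixed C57BL6J and 129S1 background. By the methods, Ctrl mice without Cre had floxed *Hif1a* alleles too, *Hif1a* fl/fl. The comparisons ask how RNA for this sheet-like matrix and its receptors differed between O2 levels and genotypes.

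A basement membrane is a thin sheet in which a laminin network and a collagen IV network are joined by nidogens and by the heparan sulfate proteoglycans perlecan (*Hspg2*) and agrin. Laminins are trimers of 1 alpha, 1 beta and 1 gamma chain, and collagen IV molecules are trimers of alpha chains encoded by gene pairs that lie head to head. Integrins are receptors of 1 alpha and 1 beta subunit that bind these networks, or fibronectin and fibrillar collagens, and link them to actin. In tendon, fibroblasts are surrounded mainly by fibrillar collagen, and basement membrane is found around vessels, nerves and the sheath.

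Library totals ranged from 6857558 counts in cKO 1% O2 replicate 1 to 51806453, and 3 counts, taken as the floor of detection, corresponded to 0.0579 to 0.437 CPM (counts scaled to library size). *Hif1a* was counted in every library, at 334 to 373 CPM in Ctrl 20% O2, 366 to 488 in Ctrl 1% O2, 287 to 430.1 in the libraries labelled cKO 20% O2 and 401 to 507 in those labelled cKO 1% O2. Its log2 fold change in the libraries labelled cKO was 0.11 in 20% O2 (SE 0.16, adjusted p = 0.757 by edgeR) and 0.075 in 1% O2 (SE 0.16, adjusted p = 0.819 by edgeR), so the counts over the whole gene were not lower there, and with gesicles it was 0.055 in 20% O2 and -0.13 in 1% O2. Counts over a whole gene do not separate a deleted exon from the rest. RNA of *cre* was counted 1, 5 and 4 times in replicates 1 to 3 of cKO 20% O2 and 0, 2 and 3 times in cKO 1% O2. In the Ctrl and gesicle-treated libraries it had 0 counts. By qPCR after a longer culture, the paper reports reduced *Hif1a* in cKO TFs. All 10 tendon fibroblast markers were counted in every group, and their sum ranged from 5100 to 14700 CPM. Epithelial markers summed to at most 1.27 CPM in any library, and of 6 endothelial markers *Pecam1*, *Cdh5*, *Kdr*, *Emcn* and *Tie1* reached at most 0.655 CPM, while *Tek* had 11.3 to 75.6 CPM. The 7 mural cell markers, those of pericytes and smooth muscle, summed to 143 to 503 CPM, with *Pdgfrb* alone at 115 to 413. For another assay on these TFs the methods name 1 male and 2 female Ctrl mice and 2 male and 1 female cKO mice, and the sex behind each library is not given in the sources used here. Schwann cell, skeletal muscle and leukocyte markers summed to 9.02 to 19.5, 12.2 to 47.6 and 10.4 to 25.4 CPM. Bulk counts cannot tell fewer cells of a type from less RNA per cell.

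Levels are given as CPM with TMM normalization, and between genes as CPM per kilobase (kb) of exon. *Itgb1*, the beta subunit shared by most matrix-binding integrins, had the highest level per length of the 41 genes, with a median over 18 libraries of 523 CPM per kb. It was followed by *Itgb5*, a partner of alpha v, at 152, and by *Nid1*, the nidogen that joins laminin to collagen IV, at 142. The next were *Col4a1* at 65.8, *Itga5* at 57.5, *Lamb2* at 56.7 and *Col4a2* at 44.7 CPM per kb, which are the major collagen IV chains, the fibronectin receptor subunit and a laminin beta chain. *Itgav*, *Col4a5*, *Nid2*, *Lamb1* and *Lamc1* had medians between 19.6 and 11.6 CPM per kb. Among laminin alpha chains *Lama4*, the chain of vessel and mesenchymal laminins, was highest with 4.30 CPM per kb, and *Lama2* followed with 1.23. Each laminin alpha chain was thus below *Lamc1*, the common gamma chain, at 11.6 CPM per kb. Little or no RNA was counted for *Col4a3*, *Col4a4*, *Lama1*, *Lama3*, *Lamc3*, *Col15a1*, *Itga10* and *Itgb6*, which reached at most 0.919 CPM in any library, and *Lama1* had 0 counts in 10 of the 18 libraries. *Lama1* passed the count filter in neither fit and *Itgb6* only in the fit of all 18 libraries, so 39 members were tested between Ctrl and cKO TFs and 40 in the comparisons of gesicles. Exons of another gene overlap 33.5% of the exon bases of *Itga10*, on the same strand, and 8.45% of those of *Nid2*, on the opposite strand. These were the highest shares among members, and both counts are uncertain. The strand of the reads, which matters for *Nid2*, is not given in the sources used here.

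**Figure D1:**
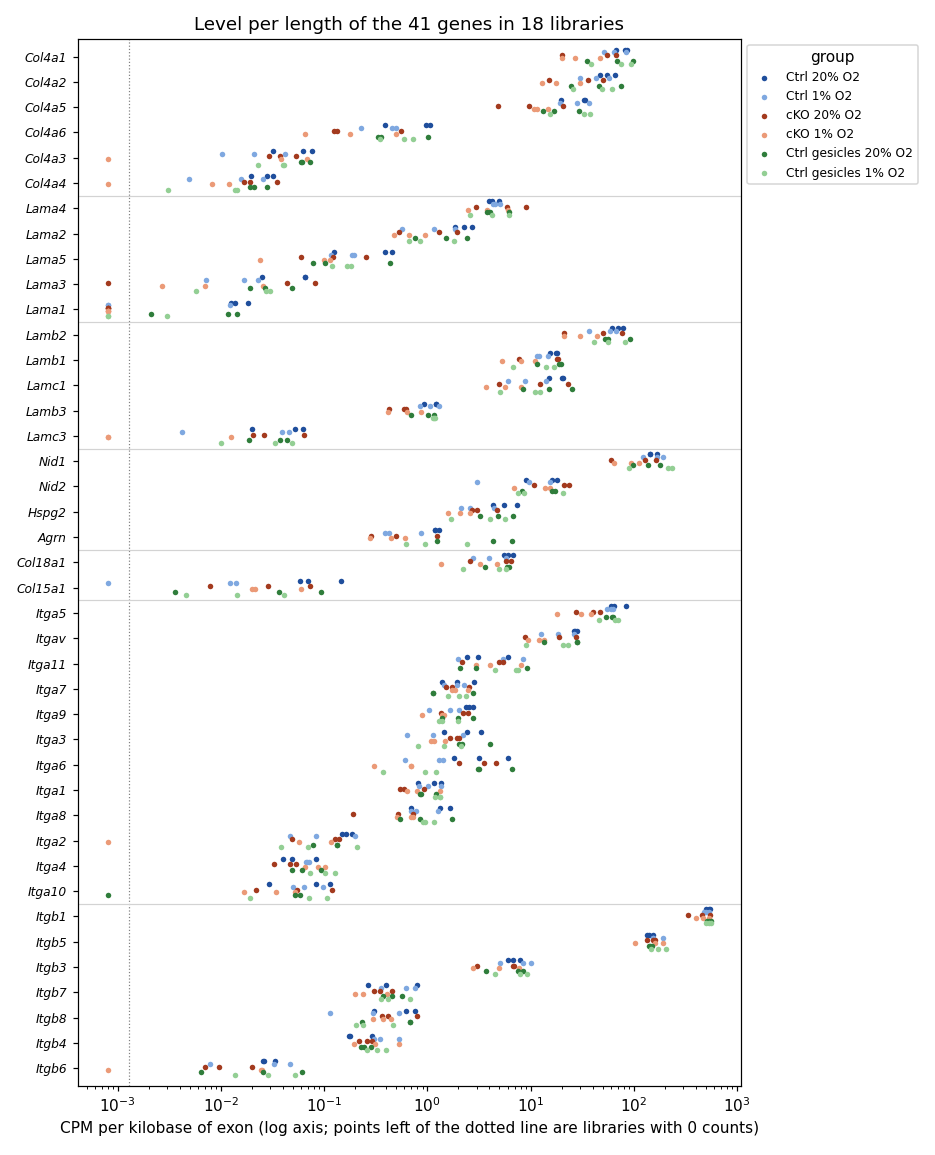
Level of the 41 genes as CPM per kb of exon (log axis), with 1 point per library, coloured by group. *Itgb1* was highest at a median of 523 CPM per kb, and *Lama1* had 0 counts in 10 libraries.

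The member with the highest level varied little. *Itgb1* had 2215, 2064 and 2183 CPM in replicates 1 to 3 of Ctrl 20% O2, and 1961, 2050.0 and 2175 in Ctrl 1% O2. In cKO 20% O2 it had 1891, 1379 and 2234 CPM, and in cKO 1% O2 1632, 1916 and 2181. With gesicles it had 2101, 2167 and 2281 CPM in 20% O2 and 2281, 2202 and 2046 in 1% O2. These groups overlapped, and the lowest library was cKO 20% O2 replicate 2. *Itgb5* ranged from 368 to 735 CPM over the 18 libraries, with means of 506 ± 32.0 (SD, n = 3) in Ctrl 20% O2 and 538 ± 157 in cKO 1% O2.

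The first question was whether 1% O2 changed these genes. Averaged over Ctrl and cKO TFs, 4 of the 39 members tested fell in 1% compared to 20% O2 and 0 rose. They were *Itga6*, a subunit of laminin receptors, *Hspg2*, the perlecan core protein, *Itga9*, a subunit that binds tenascin and other ligands, and *Lamc1*. Of all 15850 genes, 7.09% were called in this comparison, 3.27% lower and 3.82% higher. Genes were called where the edgeR adjusted p was under 0.05 and the change was at least 1.5-fold. With DESeq2, 1587 of all genes were called, 872 of them lower, and 8 members, all lower, which added *Agrn*, *Itga3*, *Lama2* and *Lamb1*. With the replicate number as a block within genotype, an alternative chosen after the data were seen, *Itga6* and *Itga3* were the 2 members called, of 1221 genes. In Ctrl TFs alone edgeR called 0 of 39 members (1.88% of all genes), with 6 at an unadjusted p under 0.05 (16.1% of all genes), 3 called by DESeq2 (*Itga6*, *Hspg2* and *Col15a1*, of 696 genes) and 2 with the block (*Itga6* and *Itga3*, of 368 genes). In cKO TFs 1 member was called, *Itga6*, which was lower (2.1% of all genes called, 0.7% lower and 1.4% higher), and 7 had an unadjusted p under 0.05 (19.8% of all genes). In gesicle-treated TFs 1 member was called, again *Itga6* and lower (2.41% of all genes called, 0.767% lower and 1.64% higher). The counts moved with single libraries, for all genes as well as for the members. Averaged over genotypes, 12 members were called without cKO 20% O2 replicate 2 (1765 of 16304 genes, against 1124 of 15850 with it), 2 without Ctrl 20% O2 replicate 2 or cKO 20% O2 replicate 3, and 1 without any 1 of Ctrl 20% O2 replicates 1 and 3, Ctrl 1% O2 replicates 1 and 3, cKO 20% O2 replicate 1 and cKO 1% O2 replicates 1 and 2, where 739 to 920 genes were called. In cKO TFs 5 were called without cKO 20% O2 replicate 2 (1373 of all genes, against 333 with it) and 0 without any 1 of the other 5 libraries (98 to 194 genes).

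*Itga6* (ENSMUSG00000027111, chromosome 2 from 71745616 to 71858416 on GRCm38) encodes integrin alpha 6, which binds laminin with beta 1 or beta 4. It had 28.9, 55.0 and 16.5 CPM in replicates 1 to 3 of Ctrl 20% O2 and 11.7, 12.8 and 5.47 in Ctrl 1% O2. In cKO TFs it had 41.3, 18.3 and 31.7 CPM in 20% O2 and 2.74, 6.20 and 6.32 in 1% O2. In gesicle-treated TFs it had 27.7, 59.5 and 28.3 CPM in 20% O2 and 8.55, 10.9 and 3.37 in 1% O2. Every 1% O2 library lay below every 20% O2 library, within each arm and across all 3 arms. The log2 fold change was -1.74 in Ctrl TFs (SE 0.46, adjusted p = 0.0796 by edgeR), which is a call only with the replicate block within genotype (-1.66, adjusted p = 0.0418), with DESeq2 with or without a block or without the filter on low counts. It fell in cKO TFs by 2.52 (SE 0.48, adjusted p = 0.0222 by edgeR) and in gesicle-treated TFs by 2.34 (SE 0.52, adjusted p = 0.0248 by edgeR). Leaving out any cKO library except cKO 20% O2 replicate 2 raised the adjusted p in cKO TFs to between 0.0609 and 0.0884, and leaving out gesicles 20% O2 replicate 2, gesicles 1% O2 replicate 1 or gesicles 1% O2 replicate 3 raised it in gesicle-treated TFs to 0.134, 0.0572 and 0.103. A fit of the gesicle libraries alone gave 0.0855. Averaged over Ctrl and cKO TFs it fell by 2.13 (SE 0.33, adjusted p = 0.00241 by edgeR), and this call was kept in all 10 alternatives and without each of the 12 libraries. The log2 difference between the responses of cKO and Ctrl TFs was -0.77 (SE 0.65, adjusted p = 1.0 by edgeR) and was not called.

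Among the cell type markers, the ranges of the summed 6 endothelial markers also lay lower in 1% O2, and this sum is nearly all *Tek*. They summed to 27.9 to 45.9 CPM in Ctrl 20% O2 and 11.4 to 27.5 in Ctrl 1% O2, to 36.3 to 75.7 and 16.1 to 40.3 in cKO TFs, and to 25.6 to 63.1 and 17.4 to 25.7 in gesicle-treated TFs. The groups of Ctrl TFs did not overlap, those of cKO and gesicle-treated TFs did, and averaged over Ctrl and cKO TFs *Tek* fell by 0.91 on the log2 scale (SE 0.26, adjusted p = 0.0404 by edgeR). Within gesicle-treated TFs *Tek* was not called for 1% against 20% O2. There *Kdr*, at most 0.643 CPM in any library, was called lower in 1% O2 (adjusted p = 0.0339 by edgeR). The mural cell markers summed to 345 to 479 CPM in Ctrl 20% O2, 283 to 316 in Ctrl 1% O2, 143 to 397 in cKO 20% O2, 154 to 224 in cKO 1% O2, and with gesicles to 297 to 503 in 20% and 195 to 394 in 1% O2. Of these, *Notch3* fell in 1% O2 averaged over Ctrl and cKO TFs. *Rgs5* rose in 1% compared to 20% O2 within gesicle-treated TFs, by 1.09 on the log2 scale (SE 0.24, adjusted p = 0.0235 by edgeR). The part of these markers in the result was not tested.

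**Figure D2:**
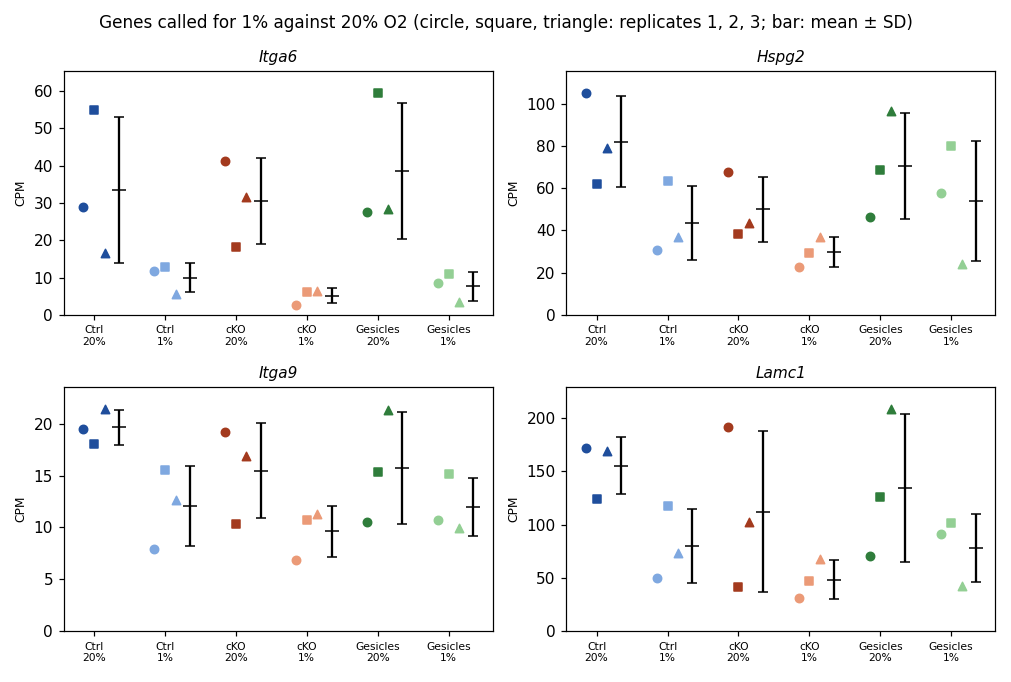
CPM of *Itga6*, *Hspg2*, *Itga9* and *Lamc1* in each of the 18 libraries (linear axes from 0), with mean and SD of 3 replicates beside them. The 9 libraries in 1% O2 held 2.74 to 12.8 CPM of *Itga6* and the 9 in 20% O2 16.5 to 59.5.

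*Hspg2* (ENSMUSG00000028763, chromosome 4 from 137468769 to 137570630) had 105, 62.1 and 79.0 CPM in Ctrl 20% O2 and 30.5, 63.2 and 36.8 in Ctrl 1% O2. It had 67.7, 38.5 and 43.7 CPM in cKO 20% O2 and 22.7, 29.4 and 37.0 in cKO 1% O2. Gesicle-treated TFs had 46.4, 68.5 and 96.6 CPM in 20% O2 and 57.6, 80.1 and 24.0 in 1% O2. The cKO groups did not overlap, while Ctrl 1% O2 replicate 2 and gesicles 1% O2 replicates 1 and 2 reached into the range of 20% O2. It fell by 0.82 on the log2 scale averaged over genotypes (SE 0.21, adjusted p = 0.0268 by edgeR), but was not called with the block within genotype (adjusted p = 0.055) or with all 18 libraries in 1 fit (adjusted p = 0.0532). Its log2 fold changes of -0.91 in Ctrl TFs, -0.74 in cKO TFs and -0.38 in gesicle-treated TFs were not called. The promoter of this gene is printed because *Hspg2* was the proteoglycan called for O2. The 300 bases from 250 before to 50 after its RefSeq start lie at chr4:137468553-137468852 on the plus strand of GRCm38.p6. Capitals mark matches to the core of the HIF motif (ACGTG or GCGTG), the GC box (GGGCGG) and CCAAT, on either strand, and no match of one motif overlaps that of another.

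Hspg2: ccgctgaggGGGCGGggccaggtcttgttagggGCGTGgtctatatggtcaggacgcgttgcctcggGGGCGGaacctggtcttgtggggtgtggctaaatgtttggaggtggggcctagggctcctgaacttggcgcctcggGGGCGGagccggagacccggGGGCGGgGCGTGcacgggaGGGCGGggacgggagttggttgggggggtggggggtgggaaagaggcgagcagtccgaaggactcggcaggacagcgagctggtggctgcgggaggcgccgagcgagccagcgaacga

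It holds 2 matches to the HIF core, at -217 and -80 from the start, and 5 to the GC box. In all 32851 mouse promoters of this length in the RefSeq table, 43.8% hold the HIF core, 35.7% the GC box and 37.4% CCAAT. Promoters were found for 30 of the 41 members, some with more than 1 start, and of their 35 promoters 11 hold the HIF core, 20 the GC box and 8 CCAAT. A match to these letters is a description of the sequence and not a measured site.

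*Lamc1* (ENSMUSG00000026478, chromosome 1 from 153218922 to 153332786) had 172, 124 and 169 CPM in Ctrl 20% O2 and 49.5, 117 and 72.9 in Ctrl 1% O2. It had 192, 41.3 and 103 CPM in cKO 20% O2 and 30.6, 47.0 and 67.2 in cKO 1% O2. Its values with gesicles were 70.1, 125 and 208 CPM in 20% O2 and 90.8, 102 and 42.1 in 1% O2. Only the Ctrl groups did not overlap, and in cKO 20% O2 replicates 1 and 2 lay farthest apart. It fell by 1.07 on the log2 scale averaged over genotypes (SE 0.32, adjusted p = 0.0496 by edgeR, and 0.0881 with the block within genotype). *Itga9* (ENSMUSG00000039115, chromosome 9 from 118606690 to 118901003) had 19.5, 18.1 and 21.4 CPM in Ctrl 20% O2 and 7.94, 15.6 and 12.7 in Ctrl 1% O2. It had 19.2, 10.3 and 16.9 CPM in cKO 20% O2 and 6.84, 10.7 and 11.3 in cKO 1% O2. With gesicles it had 10.6, 15.3 and 21.4 CPM in 20% O2 and 10.8, 15.2 and 9.98 in 1% O2. The Ctrl groups did not overlap and the others did, and it fell by 0.68 averaged over genotypes (SE 0.19, adjusted p = 0.0385 by edgeR, and 0.0542 with the block within genotype). In edgeR with the replicate number as a block across genotypes, neither *Lamc1* nor *Itga9* was called, of 951 genes. The call of *Hspg2* was lost without any 1 of 7 libraries, namely Ctrl 20% O2 replicates 1 and 3, Ctrl 1% O2 replicates 1 and 3, cKO 20% O2 replicate 1 and cKO 1% O2 replicates 1 and 2, with adjusted p from 0.0502 to 0.0747. That of *Lamc1* was lost without these and without Ctrl 20% O2 replicate 2 or cKO 20% O2 replicate 3 (0.0706 to 0.114), and that of *Itga9* without any 1 of these 9 or cKO 1% O2 replicate 3 (0.0515 to 0.0899).

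*Itga3*, another laminin receptor subunit, was called with the replicate block. It had 13.8, 18.8 and 8.21 CPM in replicates 1 to 3 of Ctrl 20% O2 and 6.46, 12.6 and 3.64 in Ctrl 1% O2, and thus was lower in 1% O2 within each replicate number, although the groups overlapped. In cKO TFs it had 11.02, 11.5 and 9.56 CPM in 20% O2 and 6.16, 8.40 and 6.62 in 1% O2, without overlap. Its log2 fold change in Ctrl TFs was -0.84 without the block (SE 0.39, adjusted p = 0.313 by edgeR) and -0.93 with it (SE 0.18, adjusted p = 0.0349 by edgeR), and averaged over genotypes it was -0.72 (SE 0.28, adjusted p = 0.108 by edgeR) and -0.76 (SE 0.12, adjusted p = 0.00788 by edgeR), respectively.

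Across the members, values in 1% O2 were lower for matrix genes than for integrins, a difference that was not tested. Averaged over genotypes, 19 of the 21 basement membrane genes tested had a log2 fold change below 0, with a median of -0.64, and 10 of 18 integrin subunits, with a median of -0.02. The median over all 39 members was -0.58, against -0.01 over all genes, of which 51.6% were below 0. The laminin alpha chains had a median of -0.85 (n = 4 genes) and the beta and gamma chains -0.64 (n = 5). The linkers and proteoglycans had -0.71 (n = 4) and the collagen IV chains -0.55 (n = 6). Integrin alpha subunits had a median of -0.44 (n = 12, 8 below 0) and beta subunits 0.02 (n = 6), so the classes of integrins differed. In cKO TFs alone the alpha subunits, at -0.49, lay below the collagen IV chains, at -0.44. Members without a call included *Lamb1*, the beta chain of most embryonic laminins, at -0.64 (SE 0.21, adjusted p = 0.0671 by edgeR), *Lama2*, the muscle laminin chain, at -0.88 (SE 0.32, adjusted p = 0.0922 by edgeR), *Itgav* at -0.58 (SE 0.23, adjusted p = 0.123 by edgeR), *Agrn* at -0.84 (SE 0.33, adjusted p = 0.115 by edgeR), *Col4a2* at -0.55 (SE 0.27, adjusted p = 0.21 by edgeR) and *Nid1* at -0.15 (SE 0.21, adjusted p = 0.688 by edgeR). *Itgb4*, which pairs with alpha 6 alone, had the highest value of the beta subunits at 0.69 (SE 0.26, adjusted p = 0.101 by edgeR), with 1.23, 2.06 and 1.26 CPM in Ctrl 20% O2 and 2.15, 3.74 and 2.42 in Ctrl 1% O2, which did not overlap. In the 3 arms, which share no library, 20 of 39 members were below 0 in each arm (33.1% of all genes), and 4, *Itgb4*, *Itgb5*, *Itga4* and *Itga11*, were above 0 in each (30% of all genes).

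Members whose 2 groups did not overlap within an arm were counted against the share of all genes. In Ctrl TFs 8 of 39 members lay lower in 1% O2 without overlap (13.5% of all genes) and 1 higher (16.6%), in cKO TFs 5 lower (9.09%) and 1 higher (10.9%), and in gesicle-treated TFs 3 of 40 lower (10.9%) and 0 higher (13.4%). Beside the genes above, those lower without overlap were *Lamb1*, *Lama3*, *Itgav*, *Col15a1* and *Agrn* in Ctrl TFs, *Lamc3* and *Col4a4* in cKO TFs, and *Col4a3* and *Col4a4* in gesicle-treated TFs. *Itga4*, a subunit that binds fibronectin and VCAM1, was higher without overlap in cKO TFs, with 0.744, 0.646 and 0.452 CPM in 20% O2 and 1.23, 1.42 and 0.907 in 1% O2. *Col15a1* was counted 14, 15 and 30 times in Ctrl 20% O2 and 0, 3 and 3 times in Ctrl 1% O2, which is at or below the floor of 3 counts, and *Lama3*, *Lamc3*, *Col4a3* and *Col4a4* were counted at most 32 times in any library.

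**Figure D3:**
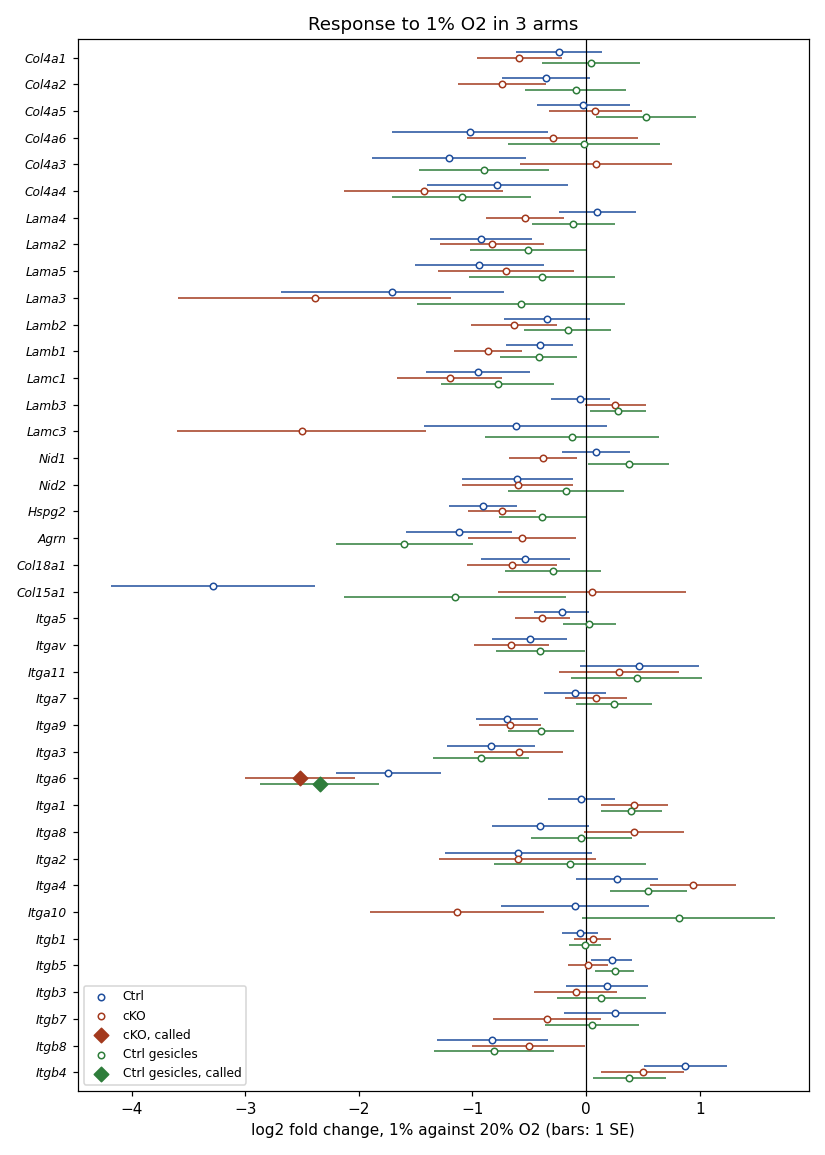
log2 fold change of 1% against 20% O2 for the 39 members tested, in Ctrl, cKO and gesicle-treated TFs, with bars of 1 SE and filled diamonds for called genes. *Itga6* was called in cKO (-2.52) and gesicle-treated TFs (-2.34), and most laminin chains lay to the left of 0.

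The second question was whether the genes differed between cKO and Ctrl TFs. Averaged over both O2 levels, 3 of 39 members were lower in cKO TFs and 0 higher: *Itga5*, the alpha subunit of the fibronectin receptor, *Lamb3*, the beta chain of laminin 332, and *Col4a5*, a collagen IV chain encoded on the X chromosome. Of all 15850 genes, 3.78% were called, 2.68% lower and 1.1% higher. This average counts the libraries at both O2 levels as separate samples, and whether those of 1 replicate number came from 1 mouse is not given in the sources used here. With the libraries of the same genotype and replicate number summed, as 3 against 3, 0 members and 25 of 16715 genes were called (adjusted p = 0.102 by edgeR for *Itga5*, 0.161 for *Lamb3* and 0.181 for *Col4a5*). In 20% O2 edgeR called 0 of 39 members (0.347% of all genes, 0.202% lower), with 7 at an unadjusted p under 0.05 (14.3% of all genes). DESeq2 called 3 there, the same 3 genes, and 443 of all genes. In 1% O2 edgeR called 0 (0.0379% of all genes, 0.0126% lower), with 8 at an unadjusted p under 0.05 (16.8% of all genes). DESeq2 called 1 there, *Itga5*, and 302 of all genes. In 20% O2 1 member, *Col4a5*, was called without cKO 20% O2 replicate 1 (adjusted p = 0.0405), of 154 genes called among 16363. DESeq2 called 9 members for the average, of 1213 genes, which added *Col4a1*, *Col4a2*, *Hspg2*, *Itga8*, *Itgav* and *Nid1*. Single libraries moved the count here too, again for all genes. It was 14 without cKO 20% O2 replicate 1 (1531 of 16363 genes, against 599 of 15850 with it) and 0 without Ctrl 20% O2 replicate 1 (137 of 16369 genes). It was 1 without any 1 of Ctrl 20% O2 replicate 3, Ctrl 1% O2 replicates 2 and 3, cKO 20% O2 replicate 3 and cKO 1% O2 replicates 1 and 2, where 169 to 246 genes were called. With *Xist*, a transcript of the inactive X chromosome, as a covariate for sex, 1 member was called, *Itga5*, and 343 of all genes.

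*Itga5* (ENSMUSG00000000555, chromosome 15 from 103344286 to 103366763) had 413, 294 and 316 CPM in Ctrl 20% O2 and 273, 309 and 295 in Ctrl 1% O2. It had 200.1, 137 and 231 CPM in cKO 20% O2 and 89.6, 153 and 192 in cKO 1% O2. Gesicle-treated TFs had 268, 311 and 301 CPM in 20% O2 and 349, 323 and 229 in 1% O2. Every cKO library lay below every Ctrl library, and 5 of the 6 also lay below every gesicle-treated library. The log2 fold change was -0.83 in 20% O2 (SE 0.24, adjusted p = 0.183 by edgeR) and -1.01 in 1% O2 (SE 0.24, adjusted p = 0.182 by edgeR), and averaged over O2 it was lower by a log2 fold change of -0.92 (SE 0.17, adjusted p = 0.0166 by edgeR). Over the 11 alternatives the average ranged from -1.01 to -0.75 and the call was lost only with summed libraries, and of the 12 libraries left out in turn it was lost without Ctrl 20% O2 replicate 1 (adjusted p = 0.0526). Its promoter, at chr15:103366742-103367041 on the minus strand, is printed because *Itga5* had the most stable genotype difference of the members called, with the motifs in capitals as above.

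Itga5: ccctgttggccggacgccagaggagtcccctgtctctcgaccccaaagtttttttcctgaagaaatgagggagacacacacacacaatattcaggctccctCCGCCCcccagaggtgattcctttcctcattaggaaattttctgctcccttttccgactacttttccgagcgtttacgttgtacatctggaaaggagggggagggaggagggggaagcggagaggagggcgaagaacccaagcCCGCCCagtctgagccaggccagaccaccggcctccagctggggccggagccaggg

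It holds 2 matches to the GC box, at -149 and -6, and none to the HIF core or CCAAT in these letters.

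*Lamb3* (ENSMUSG00000026639, chromosome 1 from 193207699 to 193343878) was a gene of low level. It had 8.03, 6.10 and 7.97 CPM in Ctrl 20% O2 and 5.66, 6.95 and 8.57 in Ctrl 1% O2. It had 3.90, 2.81 and 4.14 CPM in cKO 20% O2 and 2.74, 4.17 and 5.74 in cKO 1% O2. Its values with gesicles were 6.78, 4.56 and 7.66 CPM in 20% O2 and 7.71, 7.57 and 7.90 in 1% O2. The genotypes did not overlap in 20% O2, and in 1% O2 cKO replicate 3 lay above Ctrl replicate 1. Its log2 fold change was -1.01 in 20% O2 (SE 0.26, adjusted p = 0.141 by edgeR), -0.70 in 1% O2 (SE 0.27, adjusted p = 0.242 by edgeR) and -0.86 averaged (SE 0.19, adjusted p = 0.03 by edgeR), and the call was lost with *Xist* as a covariate (adjusted p = 0.0506). It was also lost without any 1 of Ctrl 20% O2 replicates 1 and 3, Ctrl 1% O2 replicates 2 and 3, cKO 20% O2 replicate 3 and cKO 1% O2 replicates 1 and 2, with adjusted p from 0.0549 to 0.0853. *Lama3*, the alpha chain of laminin 332, was counted at most 25 times in any library.

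Of the 6 collagen IV chains, 5 had values below 0 in cKO TFs averaged over O2 (47.4% of all genes), with a median log2 fold change of -0.90, and 1 was called. *Col4a5* (ENSMUSG00000031274, chromosome X from 141475385 to 141689234) had 228, 132 and 222 CPM in Ctrl 20% O2 and 130.1, 249 and 190.2 in Ctrl 1% O2. It had 139, 32.8 and 65.4 CPM in cKO 20% O2 and 73.1, 77.2 and 99.3 in cKO 1% O2. With gesicles it had 88.1, 114 and 199.7 CPM in 20% O2 and 222, 252 and 103 in 1% O2. The genotypes did not overlap in 1% O2, and in 20% O2 cKO replicate 1 lay above Ctrl replicate 2. Its log2 fold change was -1.29 in 20% O2 (SE 0.41, adjusted p = 0.221 by edgeR), -1.18 in 1% O2 (SE 0.41, adjusted p = 0.233 by edgeR) and -1.23 averaged (SE 0.29, adjusted p = 0.0376 by edgeR). That call was lost with *Xist* as a covariate (adjusted p = 0.0596). It was lost as well without any 1 of the 7 libraries named for *Lamb3* or cKO 1% O2 replicate 3, with adjusted p from 0.0564 to 0.0991.

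*Col4a1* and *Col4a2* encode the chains of the most widespread collagen IV trimer. *Col4a1* (ENSMUSG00000031502, chromosome 8 from 11198423 to 11312826) had 611, 504 and 649 CPM in Ctrl 20% O2 and 387, 621 and 479 in Ctrl 1% O2. It had 504, 151 and 409 CPM in cKO 20% O2 and 152, 202 and 353 in cKO 1% O2. Gesicle-treated TFs had 261, 508 and 733 CPM in 20% O2 and 564, 695 and 285 in 1% O2. The genotypes did not overlap at either O2 level, although cKO 20% O2 replicate 1 lay less than 1 CPM below Ctrl 20% O2 replicate 2. *Col4a2* (ENSMUSG00000031503, chromosome 8 from 11312805 to 11449287) had 366, 309 and 433 CPM in Ctrl 20% O2 and 199, 378 and 287 in Ctrl 1% O2. It had 333, 100.2 and 241 CPM in cKO 20% O2 and 85.9, 117 and 199 in cKO 1% O2. Its values with gesicles were 162, 305 and 497 CPM in 20% O2 and 325, 406 and 169.7 in 1% O2. The log2 fold change of *Col4a1* was -0.72 in 20% O2, -1.07 in 1% O2 and -0.89 averaged (SE 0.27, adjusted p = 0.0674 by edgeR). That of *Col4a2* was -0.71, -1.10 and -0.90 (SE 0.28 for the average, adjusted p = 0.0707 by edgeR). Neither was called, and both were without cKO 20% O2 replicate 1 (adjusted p = 0.0252 and 0.0222).

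The 2 genes moved together from library to library. The ratio of *Col4a1* to *Col4a2* counts lay between 1.47 and 1.95 in all 18 libraries, a highest to lowest ratio of 1.32, while each gene on its own ranged from 151 to 733 and from 85.9 to 497 CPM. For the X-linked pair of *Col4a5* and *Col4a6* the ratio of counts ran from 18.4 to 148, and for *Nid1* and *Nid2* from 7.41 to 54.1. The ends of the X-linked range were cKO 1% O2 replicates 1 and 2, where *Col4a6* was counted only 29 and 18 times. A narrow range was not particular to *Col4a1* and *Col4a2*. The highest to lowest ratio was 1.61 for *Itgb1* to *Itgb5*, on chromosomes 8 and 16, and 2.23 for *Lamb2* to *Lamb1*. It was 3.01 for *Col4a1* to *Col4a5* and 5.18 for *Lama4* to *Lama2*. Both collagen IV pairs lie head to head. The starts of *Col4a1* and *Col4a2* are 21 bases apart, with first exons that share 22 bases, and those of *Col4a5* and *Col4a6* are 1343 bases apart. The part of this distance in the ratios was not tested. The 4 promoters are printed to show these positions, each read in the direction of its own gene, and the first 2 share 78 bases on opposite strands. They lie at chr8:11312777-11313076 (minus strand), chr8:11312555-11312854 (plus), chrX:141475169-141475468 (plus) and chrX:141474027-141474326 (minus) of GRCm38.p6 and come from RefSeq, with the motifs in capitals as above.

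Col4a1: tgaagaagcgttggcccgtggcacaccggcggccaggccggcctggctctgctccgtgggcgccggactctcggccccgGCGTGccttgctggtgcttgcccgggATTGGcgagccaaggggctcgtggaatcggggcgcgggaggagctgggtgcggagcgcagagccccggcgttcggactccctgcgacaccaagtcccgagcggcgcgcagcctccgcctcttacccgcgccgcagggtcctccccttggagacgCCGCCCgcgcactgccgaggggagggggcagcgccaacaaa
Col4a2: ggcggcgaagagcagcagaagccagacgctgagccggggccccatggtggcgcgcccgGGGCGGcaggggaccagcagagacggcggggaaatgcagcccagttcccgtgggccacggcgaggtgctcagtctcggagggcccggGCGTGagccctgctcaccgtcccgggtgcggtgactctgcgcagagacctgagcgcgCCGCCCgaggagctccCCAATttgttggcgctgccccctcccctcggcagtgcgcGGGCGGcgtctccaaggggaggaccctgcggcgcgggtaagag
Col4a5: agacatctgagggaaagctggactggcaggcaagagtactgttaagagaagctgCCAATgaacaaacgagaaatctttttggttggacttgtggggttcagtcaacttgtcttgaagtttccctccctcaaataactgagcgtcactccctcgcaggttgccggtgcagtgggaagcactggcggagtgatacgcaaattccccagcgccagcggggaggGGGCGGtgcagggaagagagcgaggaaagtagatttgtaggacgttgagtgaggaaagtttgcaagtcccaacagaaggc
Col4a6: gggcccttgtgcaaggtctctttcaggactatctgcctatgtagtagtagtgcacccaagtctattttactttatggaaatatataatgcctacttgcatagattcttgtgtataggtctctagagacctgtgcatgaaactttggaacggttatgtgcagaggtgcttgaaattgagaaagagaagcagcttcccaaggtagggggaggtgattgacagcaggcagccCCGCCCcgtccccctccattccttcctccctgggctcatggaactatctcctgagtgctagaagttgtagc

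The HIF core is found once in the *Col4a1* promoter, at -171, and once in that of *Col4a2*, at -105, and not in these letters of the other pair. The GC box is found 3 times in the *Col4a2* promoter and once in each of the other 3. CCAAT is found once in each of *Col4a1*, *Col4a2* and *Col4a5*. *Col4a6*, the neighbour of *Col4a5*, was low in these cells, at 0.522 to 8.49 CPM.

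**Figure D4:**
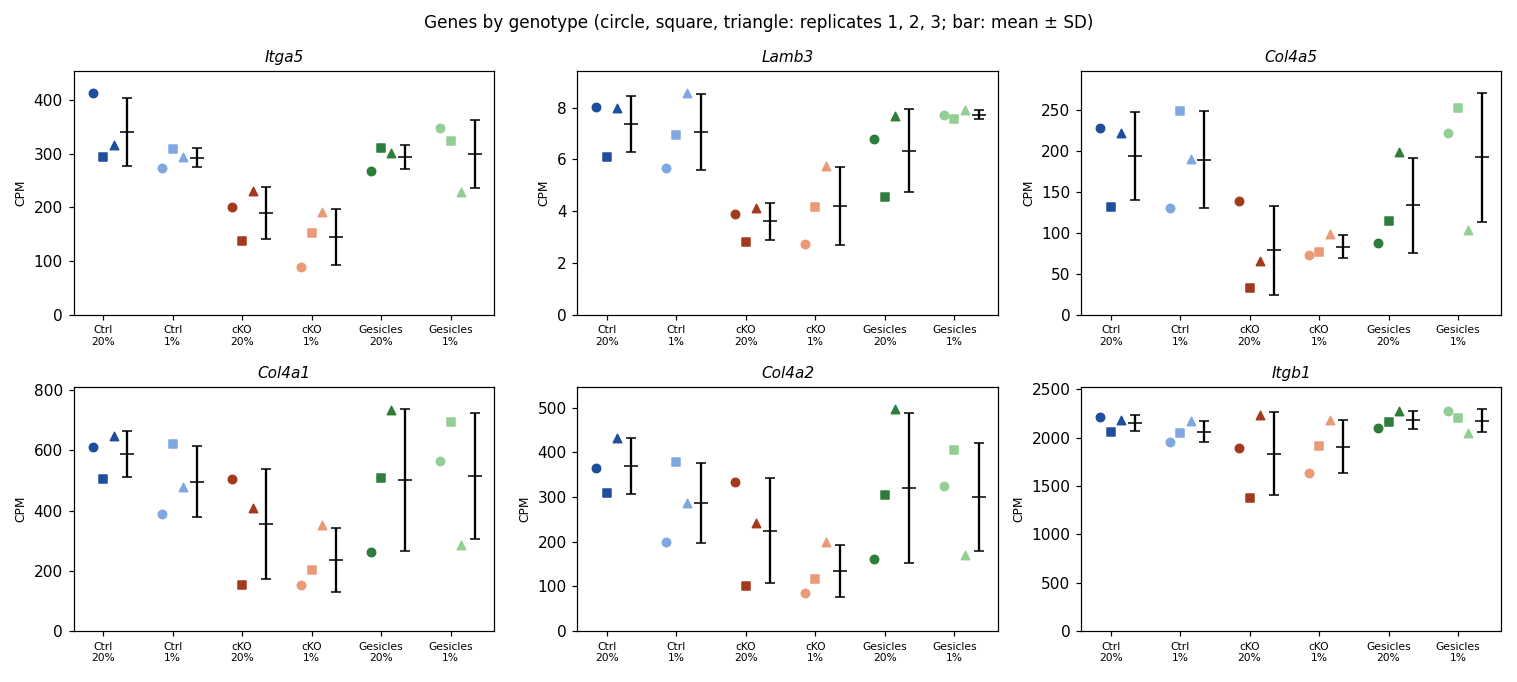
CPM of *Itga5*, *Lamb3*, *Col4a5*, *Col4a1*, *Col4a2* and *Itgb1* in each of the 18 libraries (linear axes from 0), with mean and SD of 3 replicates. The 6 cKO libraries held 89.6 to 231 CPM of *Itga5*, below the 273 to 413 of the 6 Ctrl libraries, while *Itgb1* overlapped.

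Other members of the core set were not called between genotypes. *Nid1* (chromosome 13 from 13437551 to 13512269) had 1159, 1008 and 1007 CPM in Ctrl 20% O2 and 856, 1337 and 1155 in Ctrl 1% O2. It had 1141, 419 and 891 CPM in cKO 20% O2 and 446, 782 and 655 in cKO 1% O2. With gesicles it had 686, 958 and 1238 CPM in 20% O2 and 1492, 1622 and 623 in 1% O2. The genotypes did not overlap in 1% O2 and overlapped in 20% O2, and the averaged log2 fold change was -0.60 (SE 0.21, adjusted p = 0.1 by edgeR). *Lamb2*, the most abundant laminin chain per length, had 426, 372 and 479 CPM in Ctrl 20% O2 and 225, 413 and 361 in Ctrl 1% O2. It had 466, 129 and 307 CPM in cKO 20% O2 and 129, 183 and 267 in cKO 1% O2. Gesicle-treated TFs had 320.0, 344 and 558 CPM in 20% O2 and 346, 495 and 252 in 1% O2. These groups overlapped, and the averaged log2 fold change between genotypes was -0.64 (SE 0.27, adjusted p = 0.146 by edgeR). *Lamb1* had 175, 179 and 155 CPM in Ctrl 20% O2 and 119, 148 and 114 in Ctrl 1% O2. It had 181, 76.6 and 182 CPM in cKO 20% O2 and 52.0, 79.6 and 109 in cKO 1% O2. Its values with gesicles were 116, 186 and 195 CPM in 20% O2 and 138, 166 and 67.2 in 1% O2. The genotypes did not overlap in 1% O2, and the averaged log2 fold change was -0.43 (SE 0.21, adjusted p = 0.198 by edgeR).

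*Itgav*, the alpha v subunit that binds vitronectin and latent TGF-beta, had 286, 292 and 301 CPM in Ctrl 20% O2 and 137, 282 and 200.1 in Ctrl 1% O2. It had 295, 95.6 and 202 CPM in cKO 20% O2 and 101, 129 and 144 in cKO 1% O2. With gesicles it had 144, 300.2 and 306 CPM in 20% O2 and 219, 250.5 and 96.7 in 1% O2. The 3 Ctrl 20% O2 libraries lay close together while cKO 20% O2 spread from 95.6 to 295, and the averaged genotype difference was -0.64 (SE 0.23, adjusted p = 0.105 by edgeR). *Lama4* had 59.1, 48.2 and 50.8 CPM in Ctrl 20% O2 and 54.8, 61.1 and 52.6 in Ctrl 1% O2. It had 108, 35.5 and 71.9 CPM in cKO 20% O2 and 29.7, 45.3 and 72.8 in cKO 1% O2. Gesicle-treated TFs had 49.2, 46.1 and 74.6 CPM in 20% O2 and 74.9, 51.1 and 30.9 in 1% O2. Both genotypes and both O2 levels overlapped, and its averaged log2 fold change between O2 levels was -0.22 (SE 0.24, adjusted p = 0.592 by edgeR). *Col18a1*, the source of endostatin, had 42.1, 47.0 and 38.8 CPM in Ctrl 20% O2 and 19.6, 40.5 and 27.8 in Ctrl 1% O2. It had 45.5, 18.4 and 40.4 CPM in cKO 20% O2 and 9.58, 22.6 and 32.95 in cKO 1% O2. Its values with gesicles were 25.6, 43.5 and 41.5 CPM in 20% O2 and 34.6, 40.4 and 15.4 in 1% O2. Its averaged log2 fold changes were -0.34 between genotypes (SE 0.28, adjusted p = 0.422 by edgeR) and -0.59 between O2 levels (SE 0.28, adjusted p = 0.181 by edgeR).

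Averaged over O2, 17 of the 21 basement membrane genes tested and 14 of the 18 integrin subunits had values below 0 in cKO TFs, with medians of -0.62 and -0.38. The median over all genes was 0.02, and 47.4% of all genes were below 0. These medians moved with gene length and GC content. With offsets for both, the median over all 39 members was -0.28 in place of -0.57 between genotypes and -0.36 in place of -0.58 between O2 levels. Between genotypes 28 of 39 members were then below 0 (43.7% of all genes), in place of 31. The calls of *Itga5*, *Lamb3* and *Col4a5* were kept, and those of *Hspg2* and *Itga9* for O2 were lost, at log2 fold changes of -0.50 and -0.48, below a fold change of 1.5. In the same fit *Itgb4* was called higher in 1% O2 (adjusted p = 0.025), the only call of a member as higher in any comparison under the main or an alternative setting. In 20% O2 4 of 39 members lay lower in cKO TFs without overlap, *Itga5*, *Itga2*, *Lamb3* and *Col4a1* (11.4% of all genes), and 0 higher (9.58%). In 1% O2 6 lay lower, *Itga5*, *Lamb1*, *Nid1*, *Lama5*, *Col4a5* and *Col4a1* (15.2% of all genes), and 1 higher, *Col15a1* (11.7%). *Itga2*, a collagen receptor subunit, had 1.07, 1.15 and 1.32 CPM in Ctrl 20% O2 and 0.992, 0.348 and 0.904 in cKO 20% O2. *Lama5*, a chain of mature basement membranes, had 1.32, 2.21 and 2.14 CPM in Ctrl 1% O2 and 0.274, 1.30 and 1.13 in cKO 1% O2. Beside these values, the mural markers *Cspg4* and *Rgs5* were 2 of 7 that fell in cKO TFs, with log2 fold changes of -1.46 (SE 0.32, adjusted p = 0.0302 by edgeR) and -0.77 (SE 0.14, adjusted p = 0.0132 by edgeR). The 6 skeletal muscle markers summed to 24.4 to 47.6 CPM in Ctrl 20% O2 and 12.2 to 17.5 in cKO 20% O2, with *Acta1* called lower. In 1% O2 they summed to 26.6 to 35.6 CPM in Ctrl TFs and 17.9 to 24.3 in cKO TFs, and 0 were called. *Myog*, *Pax7* and *Ckm*, which define that lineage, were at 0 in all libraries of these groups. Of 5 Schwann cell markers tested 0 were called averaged over O2, with a median log2 fold change of 0.84. The part of these markers in the result was not tested. Of 10 tendon fibroblast markers 1 was called averaged over O2, *Dcn*, higher in cKO TFs by a log2 fold change of 2.27 (SE 0.21, adjusted p = 0.00117 by edgeR). The median log2 fold change of the 10 was 0.28. They summed to 10800 to 12800 CPM in Ctrl 20% O2 and, without overlap, to 5100 to 9990 in cKO 20% O2. In 1% O2 they summed to 5730 to 13200 CPM in Ctrl TFs and 5330 to 9310 in cKO TFs.

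For the response to O2, no member was called as different between cKO and Ctrl TFs. edgeR called 0 of 39 members and 0 of all 15850 genes (0%), DESeq2 called 0 members, and 1 member had an unadjusted p under 0.05 (2.32% of all genes). That was *Col15a1*, whose counts in cKO TFs were 13, 2 and 8 in 20% O2 and 1, 13 and 5 in 1% O2, so the difference rests on counts near the floor.

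The third question was whether Cre gesicles changed these genes in Ctrl TFs. In 20% O2 edgeR called 0 of 40 members (0.0247% of 16174 genes), with 1 at an unadjusted p under 0.05 (3.67% of all genes), and DESeq2 called 0. In 1% O2 both called 0 members (0% of all genes), with 0 at an unadjusted p under 0.05 in edgeR (2% of all genes). For a difference in the response to O2 with gesicles, 0 of 40 were called by either tool (0% of all genes) and 0 at an unadjusted p under 0.05 (1.5% of all genes). Deviations of same-numbered libraries correlated between Ctrl and gesicle groups, but the labels do not say that these libraries are pairs. With the block within genotype the number of members called was 0 in each of these comparisons. The member with an unadjusted p under 0.05 was *Agrn*, which had 10.9, 11.9 and 11.03 CPM in Ctrl 20% O2 and 11.5, 40.6 and 61.8 with gesicles in 20% O2. In 1% O2 it had 3.61, 7.99 and 3.95 CPM in Ctrl TFs and 22.7, 8.79 and 5.82 with gesicles. The high values were those of replicates 2 and 3 in 20% O2 and of replicate 1 in 1% O2, and the log2 fold changes were 1.73 (SE 0.61, adjusted p = 1.0 by edgeR) and 1.25 (SE 0.61, adjusted p = 1.0 by edgeR). The members called between cKO and Ctrl TFs had log2 fold changes in 20% O2 of -0.23 for *Itga5* (SE 0.23), -0.23 for *Lamb3* (SE 0.25) and -0.55 for *Col4a5* (SE 0.44), each with an edgeR adjusted p of 1.0. *Col4a1* had -0.25 (SE 0.43) and *Col4a2* -0.22 (SE 0.45). In 1% O2 the same genes had log2 fold changes of 0.024 for *Itga5*, 0.11 for *Lamb3*, 0.0069 for *Col4a5*, 0.041 for *Col4a1* and 0.047 for *Col4a2*, each smaller than its SE. These gesicle comparisons share the Ctrl libraries with those of genotype, so the values stand side by side without a test between them. The median over the 40 members was -0.22 in 20% O2 and 0.05 in 1% O2. Without overlap lay *Itga2*, lower with gesicles in 20% O2 (1 of 40 lower, 4.77% of all genes, and 0 higher, 8.32%), and *Itga4*, higher with gesicles in 1% O2 (1 of 40 higher, 3.47% of all genes, and 0 lower, 2.9%).

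Within several groups most members were lowest in the same library. In cKO 20% O2, 29 of 40 members were highest in replicate 1 and 31 were lowest in replicate 2, against 33.9% and 42.1% of all genes. In cKO 1% O2, 33 of 40 were lowest in replicate 1, the shallowest library, against 54% of all genes. Most members were also lowest in Ctrl 1% O2 replicate 1 (29 of 40, against 39.2% of all genes), gesicles 20% O2 replicate 1 (27, against 37%) and gesicles 1% O2 replicate 3 (27, against 36.4%). In Ctrl 20% O2 no library was lowest for most members (14, 17 and 9 of 40). Taking each gene's mean over 18 libraries as 0, the median member stood at -0.74 in cKO 20% O2 replicate 2 and 0.44 in cKO 20% O2 replicate 1 on the log2 scale. Genes with the longest exons moved the same way, and the longest 10% of genes had medians of -0.41 and 0.21 in these 2 libraries. The members are long genes, with a median exon length of 7250.5 bases against 3932 for all genes tested, and 12 of 40 were among the longest 10%. The part of length in these results was addressed only by the offsets above.

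**Figure D5:**
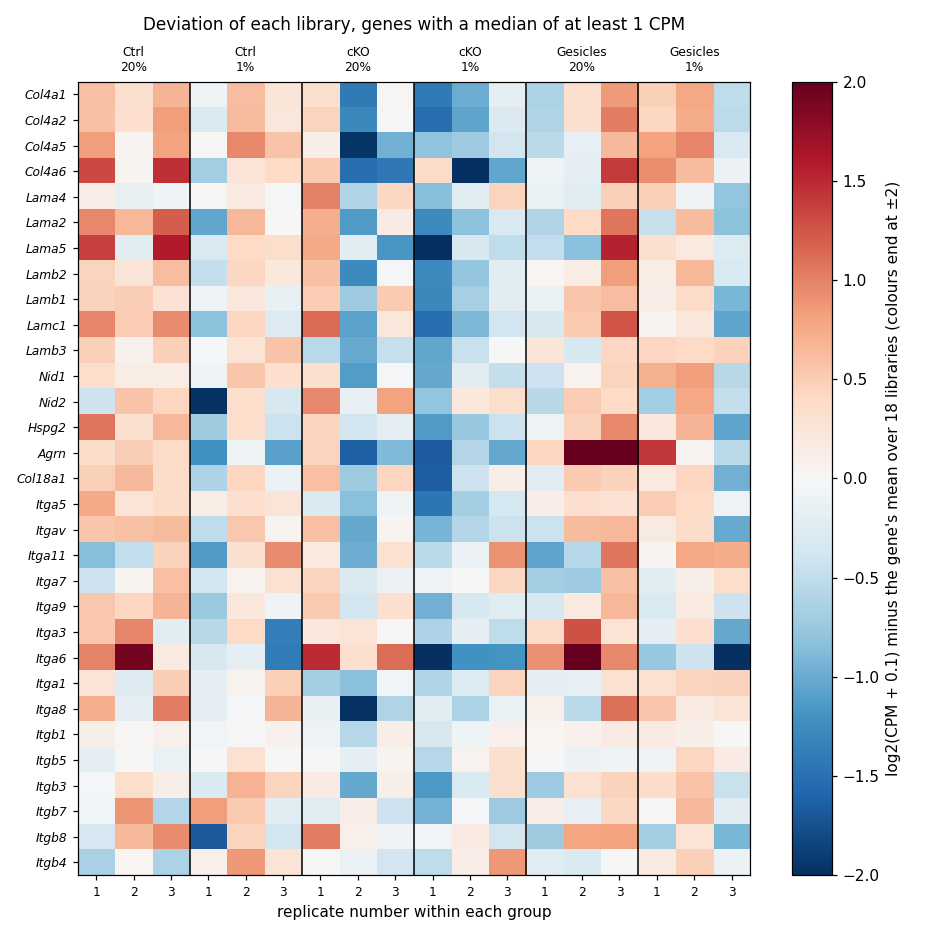
Deviation of each library from the gene's mean over 18 libraries, as log2(CPM + 0.1), for the 31 members with a median of at least 1 CPM, in columns by group and replicate. Blue columns in cKO 20% O2 replicate 2 and cKO 1% O2 replicate 1 run through most genes, whereas *Itga6* was above its mean in all 9 libraries in 20% O2 and below it in all 9 in 1% O2.

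Other genes of the pathway were read from 4 hand-written lists, in the main fits only. Of all 15850 genes, 3.27% were called lower and 3.82% higher for O2 averaged over genotypes. For genotype averaged over O2, 2.68% were called lower and 1.1% higher. With summed libraries, in which the lists were not read, 25 of 16715 genes were called for genotype. Averaged over genotypes, the integrin adhesion complex, which couples integrins to actin, had 0 of 24 genes tested higher and 4 lower in 1% O2, which were *Tln1* (talin) at a log2 fold change of -1.20 (SE 0.33, adjusted p = 0.0335 by edgeR), *Flna* (filamin) at -0.94 (SE 0.27, adjusted p = 0.0419 by edgeR), *Actn1* at -0.83 (SE 0.16, adjusted p = 0.00835 by edgeR) and *Tns1* at -0.60 (SE 0.16, adjusted p = 0.0281 by edgeR). Of 14 integrin ligands outside the basement membrane 1 rose and 2 fell. *Vcam1*, a ligand of alpha 4 integrins, rose by 0.82 (SE 0.09, adjusted p = 0.00032 by edgeR), and it was called in each arm, at 0.61 in Ctrl, 1.03 in cKO and 0.78 in gesicle-treated TFs. *Fbn1* (fibrillin) fell by 1.01 and *Ccn2* by 0.88 on the log2 scale. Of 16 basement membrane assembly and associated genes 1 fell, *Ntn1*, by 0.93, and of 13 other matrix receptors 0 were called. Between genotypes, *Npnt*, a ligand of alpha 8 beta 1, was lower in cKO TFs by a log2 fold change of -1.05 (SE 0.24, adjusted p = 0.0342 by edgeR) and *Tinagl1* by -0.61 (SE 0.16, adjusted p = 0.0487 by edgeR), 2 of 16 in their list. The collagen receptor *Ddr1* (-0.85, SE 0.14, adjusted p = 0.00889 by edgeR) and the syndecan *Sdc3* (-0.85, SE 0.22, adjusted p = 0.0493 by edgeR) were 2 of 13 other receptors called, both lower. *Flna* (-1.22) and *Tln2* (-1.12) were 2 of 24 adhesion complex genes called, both lower, and *Tgfbi*, of 14 ligands, was higher by 1.16 (SE 0.28, adjusted p = 0.0406 by edgeR). The median log2 fold changes of the adhesion complex, the ligands, the assembly genes and the other receptors were -0.33, -0.43, -0.34 and -0.14 for O2, and -0.19, -0.34, -0.38 and -0.21 for genotype.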

How the data were processed

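Poly-A RNA of mouse tail tendon fibroblasts was sequenced as 151 bp paired-end reads in 18 libraries. Per the labels, the authors trimmed reads with cutadapt, aligned them with STAR to GRCm38 and counted genes with RSEM 1.3.3, and the deposited values are estimated counts per gene, rounded to whole numbers. The labels give 10% serum and the methods 1%. The 41 members and all gene lists were chosen with earlier results of these data known.

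Counts were analysed with edgeR 4.0.16 in R 4.3.3 (quasi-likelihood test, TMM factors, filterByExpr, Benjamini-Hochberg adjustment over all genes tested). Ctrl and cKO libraries were fitted together (15850 genes) and all 18 libraries for gesicles (16174 genes). Genes were called where the adjusted p was under 0.05 and the change at least 1.5-fold. The average over genotypes or O2 levels is the mean of both contrasts. Library totals of 6857558 to 51806453 counts put 3 counts, the floor, at 0.0579 to 0.437 CPM, and floors cover counting error only. No 2 libraries agreed within sampling noise (chi-square per degree of freedom at least 14.1). p-values measure the spread between these samples.

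Values in every sample are given for members called in at least 1 of 11 comparisons, for a core set (*Col4a1*, *Col4a2*, *Lamb1*, *Lamc1*, *Nid1*, *Hspg2*, *Itga5*, *Itgav*, *Itgb1*) and for the member of highest level per length in each class. Other members are given by ranges and counts, or by values where groups did not overlap. Other genes were named where called, up to 4 a list. *Itga3* and *Agrn* in the gesicle comparison were named after their values were seen.

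The labels number replicates 1 to 3 in every group. Deviations of same-numbered libraries correlated above 0.1 for every number between Ctrl 20% and 1% O2 (r = 0.282, 0.31 and 0.485) and between Ctrl and gesicle libraries (0.36, 0.492 and 0.426 in 20% O2, 0.268, 0.215 and 0.305 in 1% O2). This was not so in cKO TFs (0.0844, 0.0955 and 0.397), between gesicle libraries (0.0194, 0.224 and -0.0268) or between genotypes. The labels do not say that equal numbers are pairs, so pairing is uncertain. The main fits used no pairing, while the block within genotype applied it to cKO and gesicle libraries too. Alternatives were DESeq2 1.42.0, the replicate block, other size factors, other filters on low counts, other samples in the fit, no fold minimum, offsets for GC content and exon length (splines with 4 degrees of freedom), *Xist* as a covariate, the libraries of 1 replicate number summed, and each library left out in turn. The block within genotype was chosen after the data were seen. Scripts were tested on simulated counts. Promoters were read from RefSeq sequence of GRCm38.p6, and deviations between libraries used log2(CPM + 0.1).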

Additional observations from a re-analysis of the deposited data

How the results depend on the processing

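The number of members called depended on the test more than on the scaling. With DESeq2 it was 3 for O2 in Ctrl TFs, 8 for O2 averaged over genotypes, 3 and 1 for genotype in 20% and 1% O2, and 9 for genotype averaged over O2. DESeq2 with the replicate block gave 3, 7, 5, 1 and 7 for these comparisons, of 743, 1538, 473, 291 and 1243 genes called. For O2 with gesicles it gave 2, of 882 genes. The edgeR replicate block gave 2 for O2 averaged, of 951 genes. The block within genotype gave 2 for O2 in Ctrl TFs (of 368 genes), 2 averaged (of 1221) and 2 with gesicles (of 774), *Itga6* and *Itga3* in each. The edgeR block left 2 of the 3 members called for genotype averaged over O2, of 358 genes, *Col4a5* having an adjusted p of 0.0503. Same-numbered libraries of both genotypes share only a number. Without the filter on low counts 1 member was called for O2 in Ctrl TFs, 1 for genotype in 20% O2, 1 in 1% O2 and 9 averaged. Of the 28539 genes in that fit, 422, 281, 111 and 1190 were called. With *Xist* as a covariate 1 was called for genotype averaged over O2 (of 343 genes) and with summed libraries 0 (of 25). In a fit of the gesicle libraries alone 0 were called for O2 (of 120). Leaving out 1 library at a time gave 0 to 5 members for O2 in cKO TFs, 1 to 12 for O2 averaged, 0 to 1 for genotype in 20% O2, 0 to 14 for genotype averaged and 0 to 1 for O2 with gesicles, and 0 in each of the other 6 comparisons. Over all genes, DESeq2 called 696 in place of 298 for O2 in Ctrl TFs, 892 in place of 333 in cKO TFs, 732 in place of 390 with gesicles, 443 in place of 55 and 302 in place of 6 for genotype in 20% and 1% O2, 1213 in place of 599 averaged, 1587 in place of 1124 for O2 averaged and 46 in place of 4 for gesicles in 20% O2. The cause of these differences was not tested. The sign of values within their error turned for *Nid1* and *Lama4* for O2 averaged with offsets for GC content and length (log2 fold changes of 0.041 and 0.073), for *Nid1* without cKO 20% O2 replicate 1 (0.0085, range over libraries left out from -0.30), and for *Col4a1* and *Col4a2* with gesicles in 20% O2 without gesicles 20% O2 replicate 1 (0.055 and 0.096, ranges from -0.61 and -0.66). With gesicles in 1% O2, values near 0 turned when 1 library was left out, from -0.084 to 0.19 for *Itga5*, -0.22 to 0.31 for *Col4a5*, -0.22 to 0.34 for *Col4a1* and -0.21 to 0.33 for *Col4a2*, and *Col4a5* had -0.0019 with the edgeR replicate block. Depth limits *Lama1*, *Lama3*, *Lamc3*, *Col4a3*, *Col4a4*, *Col15a1* and *Itgb6*, whose counts were low in every library.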
